A study of Mus musculus with 24 samples.

Results

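The insulin-like growth factor (IGF) axis was followed through 10 genes, which were Igf1, Igf2, Igf1r, Igfbp2, Igfbp3, Igfbp4, Igfbp5, Igfbp6, Igfbp7 and Pappa, out of 22180 mouse genes measured by a probe row with a single gene symbol. The genes were chosen by name, as a known growth factor system, with earlier results of these arrays in view. For a gene with several rows, its mean over the 24 arrays would have chosen the row, but each of the 10 had exactly 1, so no measured value decided between rows. All 10 also met the filter on low values (at least 2 arrays above their own array's median) that left 15496 genes to test.

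Insulin-like growth factors are small secreted hormones related to insulin. Igf1 and Igf2 act through the receptor tyrosine kinase encoded by Igf1r, and in most tissues they are held by secreted binding proteins that can carry, store or withhold them. The protease encoded by Pappa cuts binding proteins, Igfbp4 best known among them, and so frees the ligand. In fat, this system is known for its part in the growth and differentiation of preadipocytes, and macrophages are a known local source of IGF-1.

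RNA was measured on single-colour whole-transcript arrays in live stromal cells that were taken from gonadal fat of C57Bl/6 males and sorted by flow cytometry. Adipose tissue macrophages (ATM) were split by CD11c, the integrin encoded by Itgax, and dendritic cells (ATDC) and preadipocytes (PA) were sorted too. Lean mice on a normal diet (ND) gave 2 arrays of CD11c- ATM, 2 of ATDC and 3 of PA, and obese mice on a high-fat diet with 60% fat (HFD) gave 3 arrays each of CD11c+ ATM, CD11c- ATM, ATDC and PA. Formerly obese mice were taken off the high-fat diet for 8 weeks after 12 weeks on it (weight loss, WL) and gave 3 arrays of CD11c+ ATM and 2 of CD11c- ATM, with no ATDC or PA among the arrays used. The design states that CD11c+ ATM were not sorted from ND mice because there were too few, and that the ND and HFD arrays were pools, made for ATM and ATDC from 4 ND mice and otherwise from 3 to 4 mice a pool. No genetic alteration is named for any group, and the sources used here give neither ages nor the other sorting markers. Values are deposited log2 levels, in which 1 unit is a factor of 2, and a level can be compared between arrays for 1 gene but not between genes. Array medians lay between 2.96 and 3.15, so a gene near or below 3 was dim, and each value below is printed to 2 decimals in the order of the replicate numbers.

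The labelled cell types were checked against marker lists, each summarised on an array as the median log2 level of its genes. The macrophage list stood at 9.52 to 10.39 in ATM and the dendritic cell list at 7.86 to 8.57 in ATDC against at most 4.59 elsewhere. The macrophage list was also high in ATDC, at 8.15 to 9.55, where HFD ATDC array 2 exceeded WL CD11c+ ATM array 1 at 9.52, and the preadipocyte and fibroblast list stood at 10.28 to 10.58 in PA. Other lists were also raised on some arrays. The lymphocyte list stood at 6.56 to 7.28 in ND ATDC and at 4.97 to 6.53 in HFD ATDC, against at most 5.39 elsewhere. On each ND ATDC array all 10 of its genes were above the array median. Between ND ATDC and ND CD11c- ATM, 5 of the 10 were called higher in ATDC and 0 lower. The part of such cells in the ATDC values below was not tested. The preadipocyte list reached 5.44 to 6.09 in ND CD11c- ATM, 7.15 to 9.08 in HFD CD11c- ATM and 8.36 to 8.83 in WL CD11c- ATM, with all 12 of its genes above the array median on each HFD and WL array of these cells. The macrophage list stood at 4.19 to 5.56 in ND PA and at 5.94 to 8.10 in HFD PA. The list of mast cell and granulocyte genes stood at 8.43 to 9.01 in WL CD11c- ATM, at 6.03 to 7.09 in WL CD11c+ ATM and at 2.79 to 3.02 in ND CD11c- ATM. Itgax itself was at 2.76 to 3.01 in ND CD11c- ATM and at 4.93 to 7.07 in HFD CD11c- ATM, while every HFD CD11c+ array had 7.70 or more. In these sorted pools, fewer cells of a type and less RNA per cell cannot be told apart.

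The 250 bases before the annotated start are shown for 5 genes on which the results turn: Igf1 and Igfbp4, which shared their low level in dendritic cells, and Igfbp5, Igfbp6 and Igfbp7, which were highest or nearly so in preadipocytes and were called higher in some macrophage comparisons. The windows are RefSeq's (GRCm38.p6), where 9 of the 10 genes matched an entry and Pappa is named only, and each is written 5′ to 3′ in the direction of the gene. Capitals mark matches, on either strand, to 6 motifs: the GC box, spelled GGGCGG, the TATA box, spelled TATAAA, the CCAAT box, spelled by its name, the AP-1 site, spelled TGANTCA, the C/EBP site, spelled TTNNGNAA, and the PU.1 core, spelled GAGGAAGT. No marked match overlaps another.
Igf1, chr10:87860861-87861110, plus strand: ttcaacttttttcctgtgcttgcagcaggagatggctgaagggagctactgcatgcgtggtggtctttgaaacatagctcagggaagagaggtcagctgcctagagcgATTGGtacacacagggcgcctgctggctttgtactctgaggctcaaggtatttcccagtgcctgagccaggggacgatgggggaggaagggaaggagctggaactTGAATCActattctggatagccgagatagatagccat
Igfbp4, chr11:99040994-99041243, plus strand: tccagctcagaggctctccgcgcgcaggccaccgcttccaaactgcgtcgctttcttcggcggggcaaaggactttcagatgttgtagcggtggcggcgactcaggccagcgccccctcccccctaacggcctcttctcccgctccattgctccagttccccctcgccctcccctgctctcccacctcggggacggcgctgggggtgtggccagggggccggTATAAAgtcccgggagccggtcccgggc
Igfbp5, chr1:72874866-72875115, minus strand: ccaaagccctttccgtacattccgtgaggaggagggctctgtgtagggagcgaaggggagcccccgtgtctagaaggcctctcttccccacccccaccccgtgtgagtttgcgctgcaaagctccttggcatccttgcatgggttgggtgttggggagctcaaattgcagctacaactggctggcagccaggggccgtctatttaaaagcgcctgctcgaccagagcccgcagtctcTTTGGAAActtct
Igfbp6, chr15:102143936-102144185, plus strand: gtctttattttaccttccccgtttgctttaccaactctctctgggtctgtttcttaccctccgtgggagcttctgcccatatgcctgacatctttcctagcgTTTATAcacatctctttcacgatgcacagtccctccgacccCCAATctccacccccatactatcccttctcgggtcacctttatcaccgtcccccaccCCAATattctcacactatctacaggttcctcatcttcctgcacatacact
Igfbp7, chr5:77408046-77408295, minus strand: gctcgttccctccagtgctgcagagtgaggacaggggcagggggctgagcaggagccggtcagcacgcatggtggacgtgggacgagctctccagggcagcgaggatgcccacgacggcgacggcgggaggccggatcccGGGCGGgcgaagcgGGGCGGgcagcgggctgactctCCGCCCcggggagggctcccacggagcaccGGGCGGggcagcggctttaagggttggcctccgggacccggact
The Igf1 window held a CCAAT box on the minus strand 142 bases before the start and an AP-1 match 37 bases before it. The Igfbp4 window held a TATA box 28 bases before the start. Among the genes that were high in preadipocytes, the Igfbp7 window (74.0% G and C) held 4 GC boxes, that of Igfbp6 (49.6%) held 2 CCAAT boxes and a minus-strand TATA box 148 bases before the start, and that of Igfbp5 (58.8%) held 1 C/EBP match 13 bases before it, so these 3 windows had no searched motif in common. Over 32817 RefSeq windows of the same length, the share with a match was 32.7% for the GC box, 12.4% for the TATA box, 33.8% for the CCAAT box, 6.75% for the AP-1 letters and 36.8% for the C/EBP letters. GAGGAAGT, found in 2.44% of all windows, was in none of the 5.

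The first comparison asked in which cell types the axis genes were high. The receptor-binding ligand Igf1 was high in macrophages and preadipocytes and low in dendritic cells. Igfbp4 was likewise lowest in dendritic cells, but its other groups came in another order than for Igf1. Igfbp3, Igfbp5, Igfbp6, Igfbp7 and Pappa were higher in preadipocytes than in CD11c- macrophages. Between ND PA and ND CD11c- ATM, 5 of the 10 genes were higher and 0 lower, where 23.4% of all tested genes differed and 12.6% were higher in PA. Between HFD PA and HFD CD11c- ATM the same 5 genes were higher, where 20.7% of all genes differed and 11% were higher in PA. Between ATDC and ATM, 2 genes were lower in the ND pair (8.27% of all genes called) and the same 2 in the HFD pair against CD11c+ ATM (4.16%), where 4.6% and 2.44% of all genes were lower. With so many genes separating these cell types, a count of 5 of 10 is read beside a high background.

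**Figure D1:**
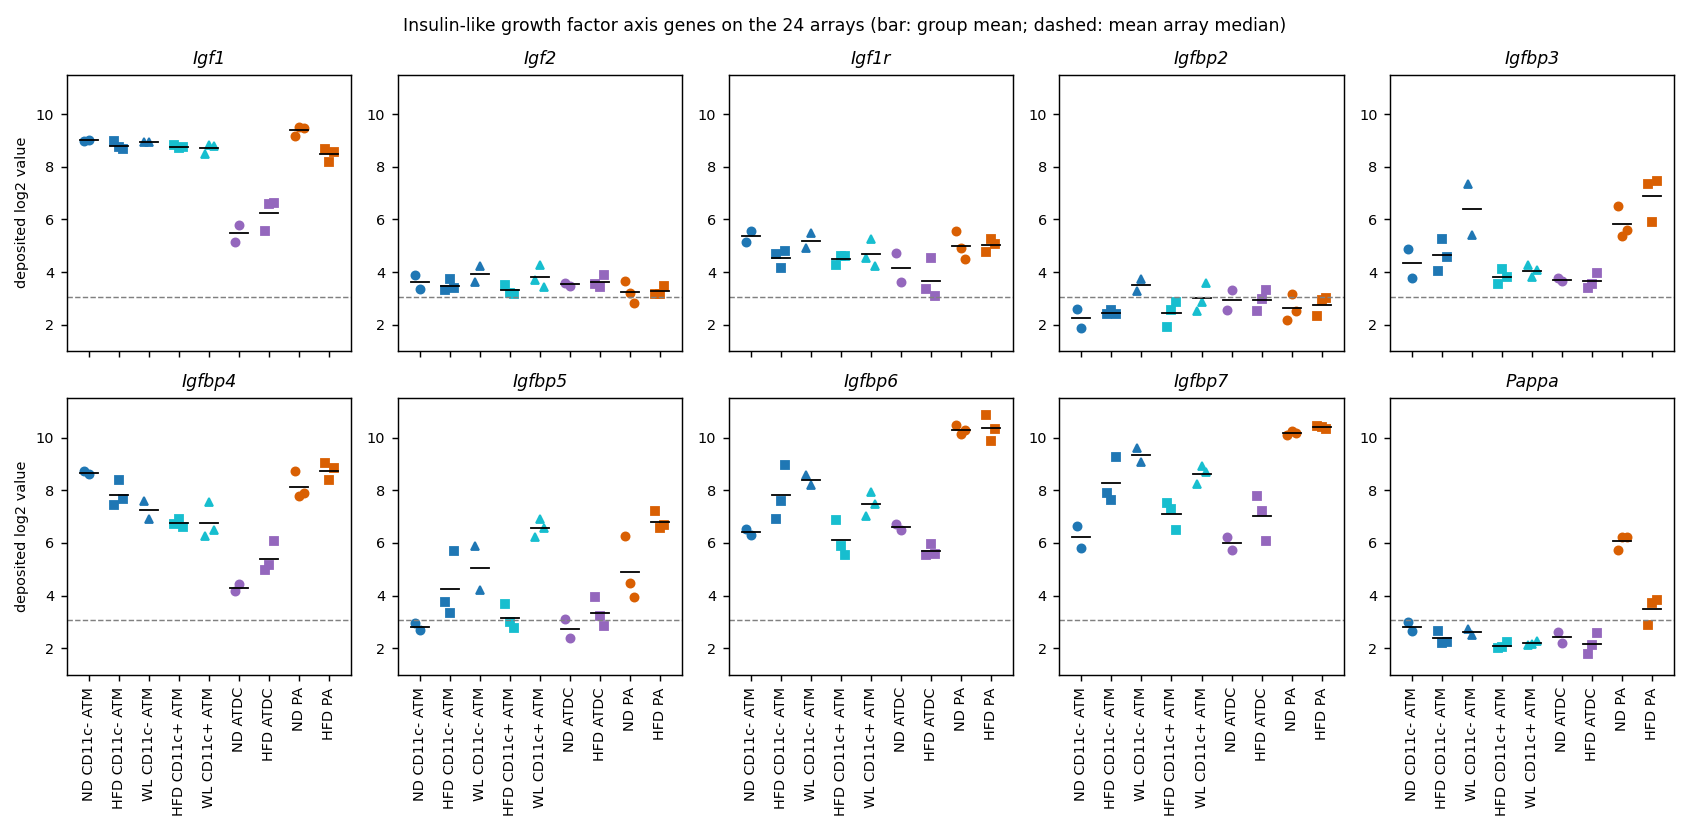
The deposited log2 value of each of the 10 genes is plotted for every one of the 24 arrays, by group on the horizontal axis (circles ND, squares HFD, triangles WL; bar, group mean; dashed line, mean array median). Igf1 lay at 8.19 or above on all ATM and PA arrays and at 6.62 or below on all ATDC arrays, and Pappa exceeded the array median on PA arrays only.

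Igf1, the main ligand of the receptor, was measured at 8.99 and 9.02 in ND CD11c- ATM, at 8.96, 8.74 and 8.68 in HFD CD11c- ATM and at 8.94 and 8.93 in WL CD11c- ATM. In CD11c+ ATM it was at 8.81, 8.71 and 8.75 with HFD and at 8.50, 8.83 and 8.78 after weight loss. All 13 macrophage arrays thus lay within 8.50 to 9.02. In ATDC it stood at 5.16 and 5.78 with ND and at 5.56, 6.58 and 6.62 with HFD, below every other array. ND ATDC were lower than ND CD11c- ATM by -3.53 ± 0.30 log2 units (SE of the fit, adjusted p = 4.11e-07 by limma), and HFD ATDC were lower than HFD CD11c+ ATM by -2.50 ± 0.25 (adjusted p = 3.85e-06). In PA it was at 9.18, 9.50 and 9.48 with ND and at 8.67, 8.19 and 8.56 with HFD, and neither level was called different from that of CD11c- ATM on the same diet (0.38 ± 0.28, adjusted p = 0.379, and -0.32 ± 0.25, adjusted p = 0.448). In the order of group means, ND PA came first and ND CD11c- ATM next, each apart from its lower neighbour, and the ranges of the WL CD11c-, HFD CD11c-, HFD CD11c+ and WL CD11c+ groups overlapped from one to the next, as did the last of these with HFD PA.

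Igf2, the other ligand and an imprinted growth factor of fetal life, lay between 2.82 and 4.26 on all 24 arrays and exceeded its array's median on 23 of them. Its neighbouring groups overlapped throughout the order, from WL CD11c- ATM (mean 3.92) down to ND PA (mean 3.23), and no comparison called it. The receptor gene Igf1r was above the median on all 24 arrays, at 3.10 to 5.55. Its highest group was ND CD11c- ATM at 5.15 and 5.55, and its lowest were ND ATDC at 4.72 and 3.61 and HFD ATDC at 3.10 to 4.53, with overlap between neighbours at every step. The ND ATDC against ND CD11c- ATM difference of -1.19 ± 0.46 did not pass (adjusted p = 0.138), nor did any other for this gene.

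Igfbp4, a binding protein known mainly as an inhibitor of IGF action and as the classic substrate of the Pappa protease, was at 8.73 and 8.60 in ND CD11c- ATM and at 4.18 and 4.42 in ND ATDC. The ATDC value was lower by -4.36 ± 0.44 (adjusted p = 2.53e-06). In obese mice the levels were 6.73, 6.91 and 6.61 in CD11c+ ATM and 4.96, 5.15 and 6.08 in ATDC, and the difference of -1.35 ± 0.36 passed narrowly (adjusted p = 0.0384). That call was lost when any 1 of the 3 HFD CD11c+ arrays or HFD ATDC array 1 or 2 was left out, with differences of -1.42 to -1.14. In PA the levels were 8.74, 7.78 and 7.90 with ND and 9.03, 8.38 and 8.84 with HFD and neither was called different from CD11c- ATM on the same diet.

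Igfbp6, which binds IGF-2 in preference to IGF-1, and Igfbp7, a secreted protein that binds IGFs only weakly, were highest in preadipocytes. Igfbp6 was at 10.47, 10.15 and 10.28 in ND PA and at 6.52 and 6.29 in ND CD11c- ATM, a difference of 3.89 ± 0.46 (adjusted p = 2.16e-06), and Igfbp7 was at 10.11, 10.26 and 10.19 against 6.63 and 5.82, a difference of 3.96 ± 0.47 (adjusted p = 1.93e-06). No array of the other cell types reached the range of PA for either gene. In obese mice, HFD PA stood at 10.85, 9.86 and 10.33 for Igfbp6 and at 10.43, 10.39 and 10.34 for Igfbp7, higher than HFD CD11c- ATM by 2.52 ± 0.41 (adjusted p = 0.000135) and 2.11 ± 0.42 (adjusted p = 0.000765). In ATDC, Igfbp6 was at 6.71 and 6.50 with ND and 5.53, 5.96 and 5.57 with HFD, and Igfbp7 at 6.23 and 5.74 with ND and 7.77, 7.21 and 6.06 with HFD.

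Igfbp3, the chief carrier of IGFs in blood, was at 6.52, 5.36 and 5.61 in ND PA and at 7.34, 5.88 and 7.45 in HFD PA, against 4.88 and 3.78 in ND and 4.04, 5.27 and 4.57 in HFD CD11c- ATM. The difference between the cell types was 1.50 ± 0.53 in lean mice (adjusted p = 0.0461) and 2.26 ± 0.47 in obese mice (adjusted p = 0.00137). The lean call was lost without ND CD11c- ATM array 2, ND PA array 1 or ND PA array 3, at 0.95, 1.16 and 1.61. Igfbp5, a binding protein that also adheres to extracellular matrix, was at 6.27, 4.49 and 3.95 in ND PA and at 2.95 and 2.69 in ND CD11c- ATM. It was higher in PA by 2.08 ± 0.65 (adjusted p = 0.024), or by at least 1.79 with the dim macrophage arrays set no lower than their array medians, and the call was lost without either ND CD11c- array or without ND PA array 1. In obese mice the levels were 7.20, 6.56 and 6.68 in PA and 3.75, 3.35 and 5.69 in CD11c- ATM, a difference of 2.55 ± 0.58 (adjusted p = 0.00293).

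Igfbp2, known as a binding protein of preadipocytes and liver, was dim: 18 of 24 arrays lay at or below their own median and the range was 1.88 to 3.73. No comparison called it, and the highest group was WL CD11c- ATM at 3.26 and 3.73. Pappa, the protease, was above the array median on 5 of 24 arrays, and these were the 3 ND PA arrays at 5.72, 6.22 and 6.23 and 2 of the 3 HFD PA arrays, at 3.72 and 3.82. Outside PA it ranged from 1.77 to 3.00, with no array above its median, so that order among those groups is not read. ND PA exceeded ND CD11c- ATM by 3.24 ± 0.29 (adjusted p = 1.13e-07) and by at least 2.94 against the array medians. HFD PA exceeded HFD CD11c- ATM by 1.11 ± 0.26 (adjusted p = 0.00321), and by at least 0.41 against the medians. In these data the protease message was thus readable in preadipocytes alone. The message for Igfbp4 was above the array median on all 24 arrays, with group means of 6.75 to 8.75 in macrophages and preadipocytes.

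The second question was what high-fat feeding changed. Pappa fell in preadipocytes, Igfbp7 rose in CD11c- macrophages, and no gene of the axis passed in dendritic cells. In PA, 1 of 10 genes was called and it was lower, where 2.59% of all genes were called and 0.897% were lower. In CD11c- ATM, 1 of 10 was called and it was higher, where 0.613% of all genes were called and 0.439% were higher. In ATDC, 0 of 10 were called, where 0.258% of all genes were called by limma and 1335 genes had an unadjusted p under 0.05. The median difference over the 10 genes was 0.08 in PA, 0.04 in CD11c- ATM and 0.04 in ATDC, beside -0.02, 0.01 and 0.01 over all tested genes.

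**Figure D2:**
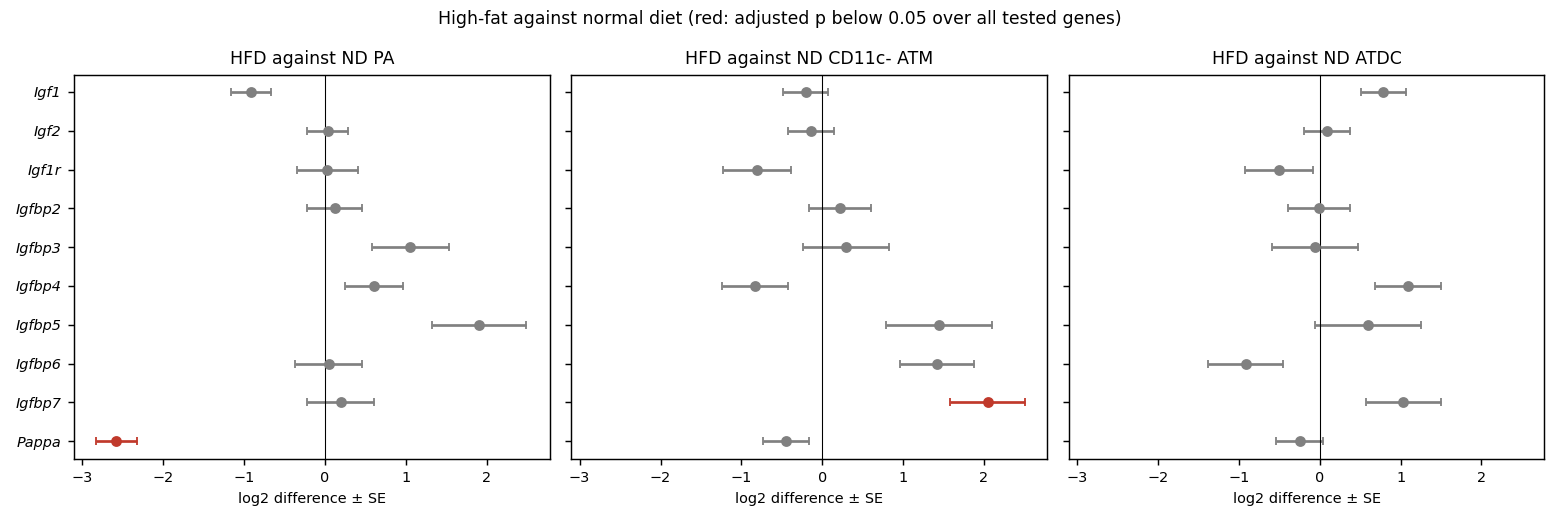
The log2 difference between HFD and ND is plotted with its SE for each of the 10 genes in PA, CD11c- ATM and ATDC (red, adjusted p below 0.05). Pappa at -2.58 in PA and Igfbp7 at 2.05 in CD11c- ATM are the red points, and Igf1 lay at -0.91 in PA and at 0.78 in ATDC without passing in either.

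Pappa stood at 5.72, 6.22 and 6.23 in ND PA and at 2.90, 3.72 and 3.82 in HFD PA, so the groups did not overlap. It fell by 2.58 ± 0.26 log2 units (95% interval -3.11 to -2.04, adjusted p = 1.33e-05). The fall was already known from earlier work on these arrays and the call held in each of 15 alternatives tried. One HFD PA array lay below its own array median, so the fitted fall there includes a dim value. The difference between the diet effect in PA and that in CD11c- ATM was -2.13 ± 0.38 (adjusted p = 0.0152, with 0.277% of all genes called), and it did not pass without either ND CD11c- array, without ND PA array 2 or without HFD CD11c- array 1, with values from -2.31 to -1.95. Pappa was below the array median on all CD11c- ATM arrays, so that contrast sets a readable change beside a floor.

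Igf1 in PA was at 9.18, 9.50 and 9.48 with ND and at 8.67, 8.19 and 8.56 with HFD, again with no overlap. Its difference of -0.91 ± 0.25 (95% interval -1.43 to -0.39) did not pass over all genes (adjusted p = 0.0556), and 4 alternative settings brought it past the threshold. In ATDC the difference pointed the other way, at 0.78 ± 0.28 (adjusted p = 0.348), and passed only without HFD ATDC array 1, at 1.13 (adjusted p = 0.0376). On the HFD ATDC arrays the macrophage list stood at 8.15, 9.55 and 9.14 beside Igf1 at 5.56, 6.58 and 6.62, and on the ND ATDC arrays at 8.85 and 8.83, and 0 of its 12 genes were called by diet there. The mast cell and granulocyte list stood at 5.89, 3.30 and 2.94 with HFD and at 2.61 and 2.94 with ND in ATDC. The lymphocyte list stood at 6.53, 4.97 and 5.11 with HFD and at 6.56 and 7.28 with ND in ATDC, with 0 of 10 genes called by diet. The part of the cells of any of these lists in the Igf1 difference was not tested. The difference between these diet effects, a contrast added after the values were seen, was -1.70 ± 0.37 for Igf1 (adjusted p = 0.0583) and -2.33 ± 0.38 for Pappa (adjusted p = 0.0107), where 0.265% of all genes were called. The Pappa contrast did not pass when fitted on those groups' arrays alone (adjusted p = 0.0791), and Pappa was below the array median on all ATDC arrays. In CD11c- ATM the Igf1 difference was -0.21 ± 0.28 (adjusted p = 0.951).

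Among the binding proteins in PA, Igfbp5 was at 6.27, 4.49 and 3.95 with ND and at 7.20, 6.56 and 6.68 with HFD. All obese arrays were above all lean arrays, but ND PA array 1 lay close to them, and the difference of 1.91 ± 0.58 did not pass (adjusted p = 0.0982). Without that array it was 2.59 (adjusted p = 0.0125). The Igfbp3 difference was 1.06 ± 0.47 (adjusted p = 0.371) with overlapping groups, the Igfbp4 difference 0.61 ± 0.36 (adjusted p = 0.601), and those of Igfbp6 and Igfbp7 were 0.05 ± 0.41 and 0.20 ± 0.42.

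**Figure D3:**
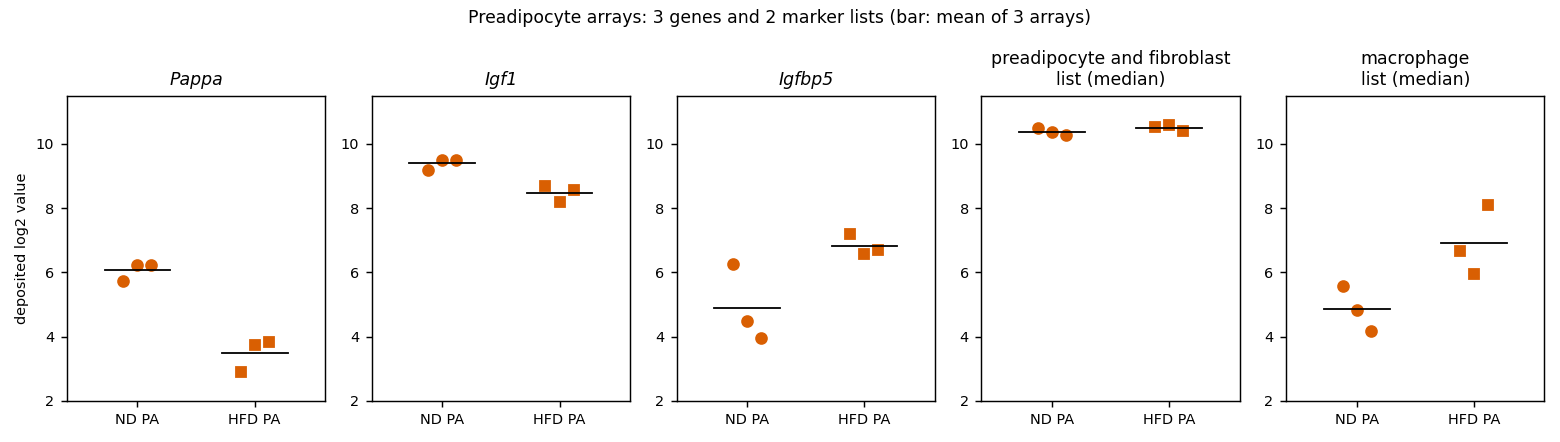
Log2 levels on the 3 ND and 3 HFD preadipocyte arrays are plotted for Pappa, Igf1 and Igfbp5 and for the median of the preadipocyte and macrophage marker lists (bar, mean of 3 arrays). Pappa lay at 5.72 to 6.23 with ND and 2.90 to 3.82 with HFD, the preadipocyte list at 10.28 to 10.49 and 10.39 to 10.58, and the macrophage list at 4.19 to 5.56 and 5.94 to 8.10.

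Markers of macrophages moved along with these differences in PA. Of the 12 macrophage genes, 8 rose from ND to HFD PA and 0 fell, and the list stood at 4.19 to 5.56 against 5.94 to 8.10, with 11 to 12 of its genes above the array median with HFD. Of the 12 preadipocyte and fibroblast genes, 0 were called, and that list stood at 10.28 to 10.49 with ND and 10.39 to 10.58 with HFD. The endothelial cell and pericyte list stood at 3.25 to 4.72 with ND and 4.94 to 5.15 with HFD, with no overlap, and 1 of its 12 genes rose. Igf1 lay at 8.50 to 9.02 on the macrophage arrays, at 9.18 to 9.50 in ND PA and at 8.19 to 8.67 in HFD PA. The part of other cells in the Pappa, Igf1 and Igfbp5 values was not tested.

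In CD11c- ATM, Igfbp7 was at 6.63 and 5.82 with ND and at 7.90, 7.65 and 9.27 with HFD, with no overlap, and it rose by 2.05 ± 0.47 (adjusted p = 0.0492). That call was lost without either ND array, without HFD array 1 or without HFD array 3, with values from 1.55 to 2.45. Igfbp6 went from 6.52 and 6.29 to 6.91, 7.60 and 8.97 (1.42 ± 0.46, adjusted p = 0.242), and Igfbp5 from 2.95 and 2.69 to 3.75, 3.35 and 5.69 (1.45 ± 0.65, adjusted p = 0.525). HFD array 3 was the highest of its group for all 3 genes. The same array had the highest preadipocyte list of its group, at 9.08 beside 7.16 and 7.15, and without it the Igfbp7 difference was 1.55 (adjusted p = 0.247). Of the 12 preadipocyte genes, 3 rose in this comparison. The mast cell and granulocyte list stood at 6.10, 2.87 and 5.39 with HFD and at 2.79 and 3.02 with ND. It had 0 of 10 genes called, and the part of either list's cells in the Igfbp7 call was not tested. Igfbp4 (-0.83 ± 0.41, adjusted p = 0.596) and Igf1r (-0.81 ± 0.42, adjusted p = 0.644) were lower without passing.

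In ATDC the largest differences were 1.09 ± 0.41 for Igfbp4 (adjusted p = 0.375), 1.03 ± 0.47 for Igfbp7 (adjusted p = 0.53) and -0.92 ± 0.46 for Igfbp6 (adjusted p = 0.618). Igfbp4 went from 4.18 and 4.42 to 4.96, 5.15 and 6.08, with no overlap between the diets. Igfbp6 went from 6.71 and 6.50 to 5.53, 5.96 and 5.57, also with no overlap. In CD11c- ATM both genes pointed the other way, and the difference between the diet effects in ATDC and CD11c- ATM, tested after the values were seen, was called for 0 of 10 genes (0.0581% of all genes called, 1123 at an unadjusted p under 0.05).

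The third question was how macrophages of formerly obese mice differed from those of obese and of lean mice. Igfbp5 rose in CD11c+ ATM, and Igfbp3, Igfbp6 and Igfbp7 stood higher in WL than in ND CD11c- ATM, while Igf1 was called in none of these comparisons. Against HFD, 1 of 10 genes was called in CD11c+ ATM and it was higher (1.33% of all genes called, 0.632% higher), and 0 of 10 in CD11c- ATM, where limma called 2.96% of all genes and 2739 had an unadjusted p under 0.05. Against ND, 3 of 10 were called in CD11c- ATM, all higher, where 6.18% of all genes were called and 3.23% were higher. The median over the 10 genes was 0.36, 0.60 and 0.77 in these 3 comparisons, beside -0.10, -0.09 and -0.08 over all genes.

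**Figure D4:**
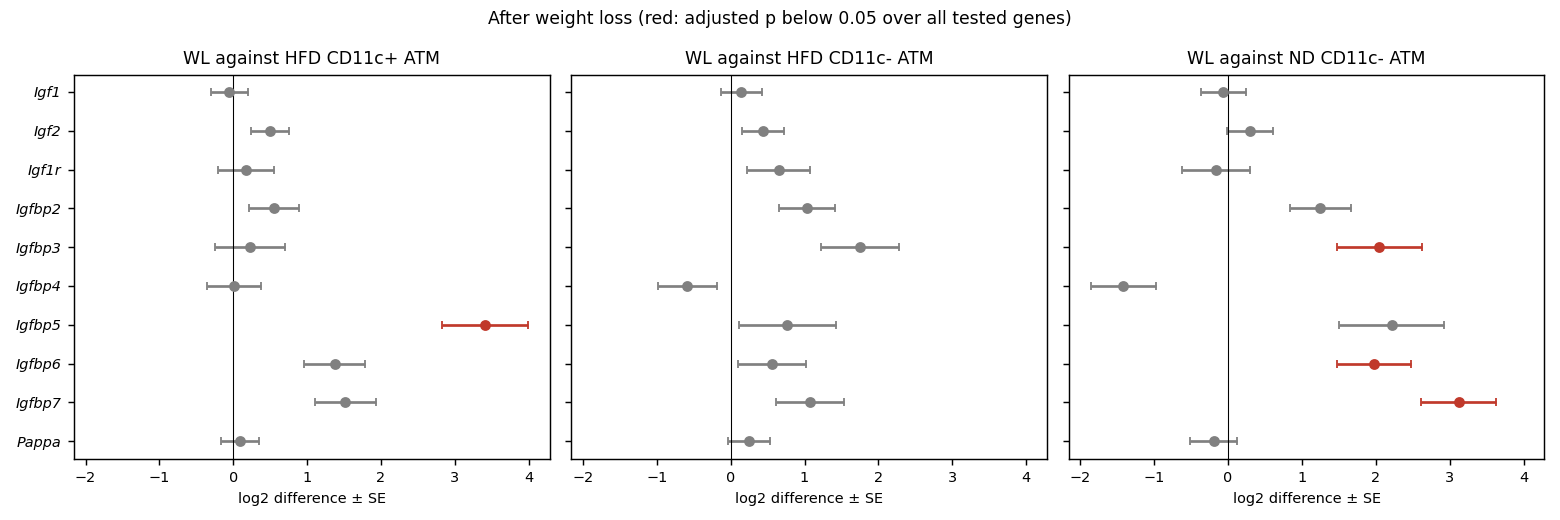
The log2 difference is plotted with its SE for each of the 10 genes in WL against HFD CD11c+ ATM, WL against HFD CD11c- ATM and WL against ND CD11c- ATM (red, adjusted p below 0.05). Igfbp5 at 3.41 is red in the first comparison, no gene in the second, and Igfbp7 at 3.12, Igfbp3 at 2.05 and Igfbp6 at 1.97 in the third.

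Igfbp5 in CD11c+ ATM was at 3.66, 3.00 and 2.79 with HFD and at 6.21, 6.90 and 6.56 after weight loss. The groups lay far apart and it rose by 3.41 ± 0.58 (adjusted p = 0.0088). Without HFD CD11c+ array 3 the difference was 3.23 and did not pass (adjusted p = 0.0625). The weight-loss level was near that of HFD PA, at 6.56 to 7.20. In CD11c- ATM the difference was 0.77 ± 0.65 (adjusted p = 0.592), from 3.75, 3.35 and 5.69 to 5.87 and 4.19, and it was -0.07 without WL array 1. The difference between the weight-loss effects in CD11c+ and CD11c- ATM, 2.64 ± 0.87 for this gene, did not pass (adjusted p = 0.479), with 0 of 10 genes called, 0.161% of all genes called by limma and 1044 at an unadjusted p under 0.05.

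Igfbp7 in CD11c+ ATM went from 7.50, 7.28 and 6.51 to 8.22, 8.91 and 8.70 (1.52 ± 0.42, adjusted p = 0.0701), and Igfbp6 from 6.87, 5.90 and 5.52 to 7.01, 7.93 and 7.47 (1.37 ± 0.41, adjusted p = 0.0907). Neither passed, though the WL arrays were above all HFD arrays for both genes. Igf1 differed by -0.05 ± 0.25 (adjusted p = 0.928).

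In CD11c- ATM, Igfbp7 was at 9.62 and 9.07 after weight loss against 6.63 and 5.82 in lean mice, a difference of 3.12 ± 0.51 (adjusted p = 0.00119) that passed in all 13 alternatives tried. Igfbp6 was at 8.56 and 8.20 against 6.52 and 6.29 (1.97 ± 0.51, adjusted p = 0.0238), and Igfbp3 at 7.34 and 5.42 against 4.88 and 3.78 (2.05 ± 0.58, adjusted p = 0.0406). The Igfbp6 call was lost without any 1 of the 4 arrays, at 1.79 to 2.16, and the Igfbp3 call without ND array 1, ND array 2 or WL array 1, at 2.60, 1.50 and 1.08. The 2 WL arrays lay far apart for Igfbp3. Igfbp5 (2.21 ± 0.71, adjusted p = 0.0742) and Igfbp2 (1.25 ± 0.42, adjusted p = 0.0855) were higher and Igfbp4 (-1.42 ± 0.44, adjusted p = 0.0646) lower without passing. Against HFD, the Igfbp3 difference was 1.75 ± 0.53 (adjusted p = 0.0803) and the Igfbp7 difference 1.08 ± 0.47 (adjusted p = 0.23). The comparisons against HFD and against ND share the WL arrays.

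Between CD11c+ and CD11c- ATM, 0 of 10 genes were called in obese mice, where limma called 0.00645% of all genes and 997 had an unadjusted p under 0.05. The largest differences there were -1.73 ± 0.41 for Igfbp6 (adjusted p = 0.337), -1.18 ± 0.42 for Igfbp7 (adjusted p = 0.595), -1.12 ± 0.58 for Igfbp5 (adjusted p = 0.816) and -1.08 ± 0.36 for Igfbp4 (adjusted p = 0.537). After weight loss 1 of 10 was called and it was lower in CD11c+ cells (1.34% of all genes called, 0.652% lower). This was Igfbp3, at 4.25, 3.81 and 4.09 in CD11c+ and 7.34 and 5.42 in CD11c- ATM (-2.33 ± 0.53, adjusted p = 0.034), and the call was lost without CD11c+ array 2 or 3 or without CD11c- array 1, at -2.21, -2.35 and -1.37. Igfbp5 was 1.52 ± 0.65 higher in CD11c+ ATM without passing (adjusted p = 0.276).

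The levels of 3 binding proteins in macrophages ran with the preadipocyte and fibroblast list. Over the 13 ATM arrays, Pearson's r with that list was 0.958 for Igfbp7 (Spearman's rho 0.984), 0.925 for Igfbp6 (0.945) and 0.799 for Igfbp5 (0.830), and 0.949, 0.918 and 0.773 without the 2 arrays farthest from the list's median. It was 0.498 for Igfbp3 (0.522), -0.208 for Igfbp4, -0.239 for Igf1 (-0.214) and -0.087 for Pappa. These values are descriptions: the arrays fall into 5 groups that differ in both quantities. In CD11c+ ATM the list went from 6.83, 6.01 and 5.76 with HFD to 8.07, 8.26 and 7.38 after weight loss, where 2 of its 12 genes rose, and in CD11c- ATM 10 of 12 rose from ND to WL. The mast cell and granulocyte list also went up: 8 of its 10 genes rose from ND to WL CD11c- ATM and 2 of 10 from HFD to WL CD11c+ ATM, and its r over the 13 arrays was 0.827 with Igfbp7 and 0.705 with Igfbp5. The endothelial cell and pericyte list stood at 3.49 to 3.65 in ND and 5.15 to 5.27 in WL CD11c- ATM, where 3 of its 12 genes rose, and its r was 0.787 with Igfbp7 and 0.529 with Igfbp3. Igfbp3 had its highest r with the mesothelial list, at 0.724 (0.558 without the 2 farthest arrays), of which 0 of 6 tested genes were called and which stood at 2.65 to 2.97 in ND and 3.37 to 3.81 in WL CD11c- ATM. The part of any of these cell types in the weight-loss values of Igfbp3, Igfbp5, Igfbp6 and Igfbp7 was not tested.

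**Figure D5:**
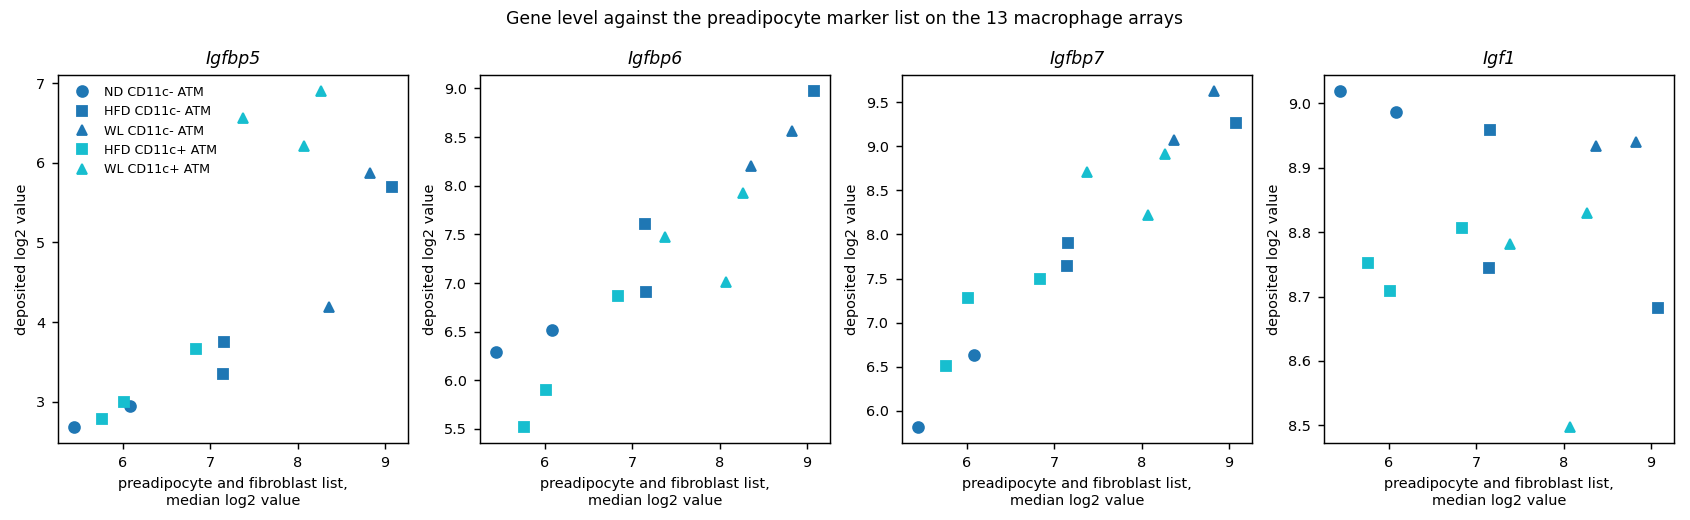
The log2 levels of Igfbp5, Igfbp6, Igfbp7 and Igf1 are plotted against the median level of the preadipocyte and fibroblast list on the 13 macrophage arrays (circles ND, squares HFD, triangles WL; dark blue CD11c-, light blue CD11c+). Igfbp6 and Igfbp7 climb with the list (r of 0.925 and 0.958), the 3 WL CD11c+ arrays have Igfbp5 at 6.21 to 6.90, above WL CD11c- arrays with a higher list, and Igf1 has no such slope (r of -0.239).

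Other genes of the pathway were read from lists of related proteins. Among 6 tested of 8 further ligands, receptors and binding proteins, the one called in any comparison was Igf2r, the receptor that clears IGF-2 and sorts lysosomal enzymes. It lay between 3.77 and 3.84 in ND and between 5.97 and 7.56 in HFD CD11c- ATM, a rise of 3.09 ± 0.47 (adjusted p = 0.00292). On both WL CD11c- arrays it was at 7.27 (3.47 ± 0.51 above ND, adjusted p = 0.000548). In HFD against ND, 0.439% of all genes were higher and 3 of 12 preadipocyte genes rose, and in WL against ND 3.23% and 10 of 12. Igf2r stood at 7.06 to 7.39 in ND PA and at 7.65 to 8.97 in HFD CD11c+ ATM. The part of other cells in its CD11c- ATM values was not tested. Among 11 tested of 15 binding protein proteases and inhibitors, 1 rose with HFD in PA and 0 fell, where 2.59% of all genes were called. It was Mmp3, a matrix metalloproteinase, at 3.29 to 4.07 with ND and 8.36 to 9.02 with HFD (4.99 ± 0.77, adjusted p = 0.000862). Pappa fell in the same comparison, and a link between them was not tested. There 8 of 12 macrophage genes rose too, and the part of other cells in the Mmp3 values was not tested. In WL against ND CD11c- ATM 6 of the 11 rose, where 3.23% of all genes were higher, with a median of 2.66 over the list beside -0.08 over all genes, led by Prss23 at 5.01 ± 0.72 (adjusted p = 0.00041) and the metalloproteinase genes Mmp3 at 3.49 ± 0.94 (adjusted p = 0.032) and Adamts1 at 3.34 ± 0.52 (adjusted p = 0.000854). The preadipocyte list moved in the same comparison (10 of 12 genes rose), Prss23 and Adamts1 were higher in ND PA than in ND CD11c- ATM by 5.63 ± 0.66 (adjusted p = 1.86e-06) and 3.36 ± 0.48 (adjusted p = 1.85e-05), and the part of such cells was not tested. Adamts1 also rose against HFD, by 2.36 ± 0.43 in CD11c+ ATM (adjusted p = 0.0112) and 2.58 ± 0.48 in CD11c- ATM (adjusted p = 0.00621).

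Of 19 tested of 25 receptor signalling genes, 0 were called by diet in PA, CD11c- ATM or ATDC. Over all genes the shares called there were 2.59%, 0.613% and 0.258%, so 0 of 19 is near the background. The list held Pdk1, the symbol of pyruvate dehydrogenase kinase 1, which is not a member of this pathway. After weight loss 1 rose in CD11c- ATM against HFD, where 2.96% of all genes were called. It was the insulin receptor substrate gene Irs2 (1.82 ± 0.37, adjusted p = 0.012). Of the 7 genes between growth hormone and IGF-1, the growth hormone receptor gene Ghr was higher in ND PA than in ND CD11c- ATM by 2.76 ± 0.38 (adjusted p = 1.42e-05), with means of 6.56 against 3.80. Socs2, an inhibitor of growth hormone signalling, was the other gene called there and was higher by 2.79 ± 0.88 (adjusted p = 0.0251). Over all genes 23.4% were called in that comparison and 12.6% were higher, so 2 of 7 is read beside a high background. Socs2 spread from 1.095 to 3.355 in ND CD11c- ATM, which reaches below the array medians. Socs3, an inhibitor of cytokine signalling, rose from HFD to WL in CD11c+ ATM (1.48 ± 0.26, adjusted p = 0.00886) and in CD11c- ATM (1.24 ± 0.29, adjusted p = 0.0236). Stat5b rose with HFD in ATDC (1.51 ± 0.31, adjusted p = 0.0447). Each was 1 of 7 called, where 1.33%, 2.96% and 0.258% of all genes were called. Of 10 mast cell and granulocyte genes, 2 rose in the CD11c+ and 5 in the CD11c- comparison. The part of other cells in the Irs2, Socs3 and Stat5b values was not tested.

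For each gene of the axis, the tested gene most like it over the 24 arrays was found by Pearson's r, a description that the separation of the cell types dominates. Igf1 was most like Pmp22 (0.959), Igfbp4 like Rcn3 (0.943), Igfbp6 like Dpep1 (0.974), Igfbp7 like the membrane metalloproteinase gene Mmp14 (0.987) and then the proteoglycan gene Lum (0.977), and Pappa like Nt5e (0.967), which encodes CD73. Igfbp5 was most like the collagen gene Col18a1 (0.882) and Igfbp3 like Rtl3 (0.882). For the dim genes the values were lower, at 0.763 for Igf2 with Gpr62 and 0.741 for Igfbp2 with Pramel24, and Igf1r was most like Aff4 (0.786). Within the axis the closest pairs were Igfbp6 with Igfbp7 (0.907), Igfbp3 with Igfbp6 (0.827), Igf1 with Igfbp4 (0.817) and Igfbp5 with Igfbp7 (0.812).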

How the data were processed

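The deposited table holds 41345 probe rows of log2 expression values on 24 arrays. RMA, oligo and limma are named in the submitters' processing notes, without versions or settings. RMA normalizes arrays to each other, which removes shifts shared by all genes of an array. The sources used here give no batch and no background per probe, so array medians stood in as a floor, decided once the data had been seen. Where no array of the dimmer group exceeded its own median, "at least" gives the difference with each dimmer array raised to its median if it lay lower.

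Rows were named from the platform annotation, of which 23521 had 1 symbol, 1814 several and 16010 none, and only those with 1 symbol were used. Signal from near-identical sequence was not separated. Groups and replicate numbers came from the sample titles. One limma 3.58.1 fit (lmFit and eBayes, R 4.3.3) held 24 arrays with 9 group means and 15 residual degrees of freedom. Tests were two-sided with Benjamini-Hochberg adjustment over 15496 genes within each of 12 comparisons and 4 interactions, 2 of them added after seeing the data, at a threshold of 0.05. The code was tested on simulated data first. Groups had 2 or 3 arrays, and this number limits the precision. The mean correlation of an array with its own group was 0.881 to 0.918 for WL arrays and 0.936 to 0.98 for ND and HFD arrays. The fit took the same spread for a gene in all groups. Where arrays are pools, p-values measure the spread between pools, not mice, and the sources used here do not say whether WL arrays were pools.

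The 10 genes and all lists were chosen with earlier results of these data known, so their calls are not independent support. All 10 genes were named. Other axis genes were named from up to 6 per list and comparison that passed the threshold with the largest differences, not all of which are printed, and like genes as the nearest by Pearson's r. Over all tested genes, same-numbered arrays deviated together little (correlations of -0.131 to 0.252 over the comparisons), and numbers were not treated as pairs. The mast cell and granulocyte list was highest on array 1 in every HFD and WL group, but in no ND group. With HFD, array 1 had 5.28 in CD11c+ ATM, 6.10 in CD11c- ATM, 5.89 in ATDC and 3.47 in PA. Whether same-numbered arrays share mice was not tested, and the fit takes all arrays as independent. Alternatives were filters, arrays fitted, replicate block, array weights, variance prior, centring, quantile normalization, row choice and each array left out.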

Additional observations from a re-analysis of the deposited data

Results flagged for a closer look

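For 3 genes the fitted response to high-fat feeding was compared between cell populations. The Pappa response in PA minus that in CD11c- ATM was -2.13 log2 units and its response in PA minus that in ATDC was -2.33, and limma's interaction test called both (adjusted p = 0.0152 and 0.0107). The second contrast was added after the values were seen and did not pass with only the arrays compared in the fit (adjusted p = 0.0791). Pappa lay below the array median on every CD11c- ATM and ATDC array, so a fall there could not be read. For Igfbp4, every HFD array lay above every ND array in ATDC and below every ND array in CD11c- ATM, and the difference of 1.93 ± 0.57 did not pass the interaction test (adjusted p = 0.326). For Igfbp6 the directions were the reverse, with HFD below ND in ATDC and above it in CD11c- ATM on every array, and the difference of -2.33 ± 0.65 did not pass either (adjusted p = 0.282). These 2 results rest on 2 ND arrays in each population, and 0.0581% of all genes were called in that contrast. How many of all tested genes separate in this way was not counted, so the pattern is not read as particular to these 2. No group had the 4 arrays needed to test single arrays as outliers.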

How the results depend on the processing

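Of 71 differences of single genes followed through the alternatives, 23 were called, and 13 of these were called in every one, among them Pappa in HFD against ND PA (-2.75 to -2.29), Igf1 in both ATDC comparisons and Igfbp7 in WL against ND CD11c- ATM. The other 10 lost their call under some alternative, and 10 uncalled differences passed under some. One changed direction: Igfbp5 in WL against HFD CD11c- ATM ranged from -0.0712, without WL array 1, to 1.6088 with 1 array left out. Why a count moved was not tested, beyond fewer arrays or another number of tested genes.

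The count of called genes among the 10 moved by more than 1.5 times as follows. Without the filter it was 0 instead of 1 in HFD against ND CD11c- ATM. With the stricter filter, a trended and robust prior or another quantile normalization it was 2 instead of 1 in HFD against ND PA, and with array weights it was 4. Array weights also gave 2 instead of 1 in WL against HFD CD11c+ ATM, 1 instead of 3 in WL against ND CD11c- ATM and 0 instead of 1 in WL CD11c+ against CD11c- ATM. With only the arrays compared in the fit, it was 0 instead of 1 in HFD against ND CD11c- ATM, in WL CD11c+ against CD11c- ATM and in the diet interactions of PA with CD11c- ATM and with ATDC, 1 instead of 3 in WL against ND CD11c- ATM, 3 instead of 5 in ND PA against CD11c- ATM and 1 instead of 2 in HFD ATDC against CD11c+ ATM. Quantile normalization also gave 1 instead of 2 in the last. With the replicate number as a block, though the numbers were not shown to pair the arrays, it was 0 in HFD against ND CD11c- ATM and 1 in HFD ATDC against CD11c+ ATM. The interaction of PA with ATDC had 2 instead of 1 with array weights, with the trended and robust prior and without ND ATDC array 2, ND PA array 1 or HFD ATDC array 1. Smaller moves were from 3 to 2 (no filter) or 4 (block) in WL against ND CD11c- ATM, from 5 to 4 in ND PA against CD11c- ATM (no filter, block, quantile normalization) and from 5 to 6 in HFD PA against CD11c- ATM (array weights). Leaving out 1 array at a time, it ranged from 0 to 1 in HFD against ND CD11c- ATM, HFD against ND ATDC, both WL against HFD comparisons, WL CD11c+ against CD11c- ATM and the diet interaction, from 1 to 2 in HFD against ND PA and HFD ATDC against CD11c+ ATM, from 1 to 3 in WL against ND CD11c- ATM, from 3 to 5 in ND PA against CD11c- ATM and from 5 to 6 in HFD PA against CD11c- ATM. Where this leaves 1 array in a group, that array is assumed to vary like the other groups. Igfbp2 and Pappa outside PA lay near or below the array median, so small differences there are not readable.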
